A study of Mus musculus with 8 samples.

Results

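Endothelial marker genes were examined in cultures of mouse embryonic fibroblasts (MEFs), with the question of whether their RNA, and with it a possible share of endothelial cells, differed between genotypes. The markers were Pecam1, Cdh5, Kdr, Flt1, Tie1, Tek, Esam, Emcn, Eng and Sox18, and the members of this set were taken as the genes with counts whose Ensembl ID maps to 1 of these symbols in GRCm38. Of the 10 genes, 8 had counts, out of 19493 endogenous genes in all, and 7 of the 8 passed the filter on low counts that left 16470 genes for testing. Esam did not pass it. RNA of Tie1 and Sox18 was not analysed here.

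RNA was sequenced from 8 MEF cultures, 4 wild-type (WT) and 4 Dp1Tyb, made from embryos at E14.5. The labels give the strain background as C57BL/6J.129P2, and the methods state that mice had been backcrossed to C57BL/6JNimr. Dp1Tyb is short for Dp(16Lipi-Zbtb21)1TybEmcf, a duplication on mouse chromosome 16 that runs from Lipi to Zbtb21 and models the extra chromosome of Down syndrome, and the labels name no other allele and no agent for either genotype. The methods call the embryos used for MEFs littermates, but the embryo numbers given there are not those of these 8 libraries. Whether the embryos used here were littermates is therefore not clear. According to the methods, MEF cultures came from trypsinised bodies without head and inner organs, grown in DMEM with serum and 2-mercaptoethanol. Such cultures start from several cell types, and no sort was described. An ERCC spike-in mix, which holds synthetic RNAs of known amount, was added to a fixed number of cells. The labels do not say that each library came from its own embryo, so p-values measure the spread between these libraries, which may be technical in part.

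Endothelial cells line blood vessels. They take up VEGF through the receptor tyrosine kinases Kdr (VEGFR2), which transmits most of the growth signal, and Flt1 (VEGFR1), which binds VEGF tightly and limits its supply to Kdr. Angiopoietins act through Tek (Tie2) and its partner Tie1, endoglin (Eng) is a co-receptor for BMP9 and TGF-beta, and the adhesion molecules VE-cadherin (Cdh5), Pecam1 and Esam sit at the contacts between endothelial cells. Emcn is a sialomucin of capillaries and veins, and Sox18 is a transcription factor of developing vessels. Several of these genes are also used elsewhere: Eng by stromal cells, Flt1 by monocytes, and Pecam1 by platelets and leukocytes. Many endothelial promoters are bound by ETS factors, whose motif has the core GGAA.

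Promoter windows from RefSeq on GRCm38.p6, which run from 250 bases before to 50 bases after a gene's start, were matched by symbol for 6 of the 10 genes, namely Eng, Emcn, Tek, Tie1, Kdr and Flt1. The windows of the 3 genes with the most counts and of Emcn, the gene with the widest spread between libraries, are given 5′ to 3′ on the gene's strand. Capitals mark GGAA or its reverse complement TTCC, the SOX motif AACAAT or ATTGTT, and the forkhead motif TAAACA or TGTTTA. The windows lie at chr5:147725962-147726261 on the minus strand (Flt1), chr2:32646345-32646644 on the plus strand (Eng), chr5:75978406-75978705 on the minus strand (Kdr) and chr3:137340828-137341127 on the plus strand (Emcn).
Flt1: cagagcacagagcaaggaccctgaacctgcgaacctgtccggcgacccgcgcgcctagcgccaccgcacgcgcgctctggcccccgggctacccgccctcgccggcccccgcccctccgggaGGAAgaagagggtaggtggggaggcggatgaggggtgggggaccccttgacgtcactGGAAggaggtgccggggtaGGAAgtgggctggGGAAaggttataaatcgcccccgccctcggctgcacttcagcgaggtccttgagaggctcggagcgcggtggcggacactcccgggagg
Eng: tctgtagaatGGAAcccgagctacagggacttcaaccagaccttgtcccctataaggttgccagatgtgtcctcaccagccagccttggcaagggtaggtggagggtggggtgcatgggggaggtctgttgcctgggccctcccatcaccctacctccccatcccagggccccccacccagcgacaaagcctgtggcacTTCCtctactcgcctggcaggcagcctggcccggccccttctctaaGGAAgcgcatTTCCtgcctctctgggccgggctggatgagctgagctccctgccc
Kdr: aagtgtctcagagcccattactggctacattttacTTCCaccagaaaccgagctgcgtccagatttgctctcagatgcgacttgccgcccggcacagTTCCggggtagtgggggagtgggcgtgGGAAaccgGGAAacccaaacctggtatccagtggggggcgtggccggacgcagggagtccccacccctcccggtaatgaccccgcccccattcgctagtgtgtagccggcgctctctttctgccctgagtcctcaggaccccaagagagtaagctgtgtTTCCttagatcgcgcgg
Emcn: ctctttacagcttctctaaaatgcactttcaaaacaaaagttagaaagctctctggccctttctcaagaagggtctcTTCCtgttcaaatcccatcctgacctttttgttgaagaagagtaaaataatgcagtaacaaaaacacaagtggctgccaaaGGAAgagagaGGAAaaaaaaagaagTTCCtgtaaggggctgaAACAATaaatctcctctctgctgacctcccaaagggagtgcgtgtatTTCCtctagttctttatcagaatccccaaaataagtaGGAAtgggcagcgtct

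Counted on both strands, GGAA matched 4 times in the Flt1 window, 4 times in Eng, 5 times in Kdr and 6 times in Emcn. It matched 2 times in the Tek window and 9 times in that of Tie1. Of 32851 promoter windows of the same length, 95.98% held this short motif, with a median of 3 matches, so its presence was common to nearly all genes. AACAAT matched once in the Emcn window and once in that of Tek, where it overlapped a TTCC match, and it was held by 10.72% of all windows. TAAACA was found in 0 of the 6 windows and in 13.44% of all windows. A match of letters describes the window and does not show that a factor binds there. The G and C content was 70.67% in the Flt1 window and 41% in that of Emcn, with a median of 52.67% over all windows.

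Total counts per library ran from 17698900 to 26471758. Levels are given as counts per 1000000 (CPM) under 1 of 2 scalings. Relative scaling divides by an effective library size (TMM factors over the endogenous genes) and fits a question about the share of a cell type, whereas spike-in scaling divides by the ERCC counts and keeps differences in RNA per cell. Spike-ins took 0.882% to 1.65% of the counts. Endogenous RNA per spike-in was 1.07 times as high in Dp1Tyb as in WT. The groups overlapped in it, with 0.713 to 1.19 in WT and 0.688 to 1.31 in Dp1Tyb on a common scale. Spike-in scaling moved the median log2 fold change over the tested genes up by 0.11. A level of 3 counts, the limit that a count of 0 allows, corresponded to 0.116 to 0.173 CPM. This limit covers counting error only, whereas the 95% intervals of fold changes come from edgeR's fit and include the spread between libraries. With spike-in scaling that fit gave nearly the same SE of the log2 fold change for Flt1 (0.316), Kdr (0.322) and Eng (0.322). DESeq2 gave 0.285, 0.427 and 0.385 with the same scaling. The spike-in intervals therefore reflect mainly a spread shared over genes, not that of each gene. Fibroblast identity was plain in both genotypes, since all 10 listed fibroblast genes had counts and both Fn1 (fibronectin) and Col1a1 (a collagen chain) ranked at 99.89% of the 19318 genes with an exon length in CPM per kilobase of exon (RPKM).

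The endothelial genes fell into an abundant and a scarce class. Compared per exon length, the mean level over the 8 libraries was 14.8 ± 2.43 RPKM (SD) for Flt1, 10.4 ± 2.75 RPKM for Eng and 4.34 ± 1.79 RPKM for Kdr. These 3 genes took 96.01% to 98.3% of the set's CPM in every library. Tek followed with 0.867 ± 0.300 RPKM and Cdh5 with 0.359 ± 0.129 RPKM. The scarcest were Pecam1 with 0.127 ± 0.0392 RPKM, Emcn with 0.0967 ± 0.0760 RPKM and Esam with 0.0960 ± 0.0431 RPKM, and the level of Flt1 was 154 times that of Esam. In RPKM Flt1 ranked at 83.76% and Pecam1 at 7.392% of the 19318 genes with an exon length.

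Of neighbours in this order, Kdr and Tek had ranges over the 8 libraries that did not meet, with more Kdr than Tek per length in 8 of 8. For the other neighbours the ranges met, and the order was read within libraries. Flt1 exceeded Eng in 7 of 8 libraries, the exception being Dp1Tyb replicate 1, and Eng exceeded Kdr in 8 of 8, with a mean log2 difference of 1.31 ± 0.29 (SD). Tek exceeded Cdh5 in 7 of 8, Cdh5 exceeded Pecam1 in 8 of 8, and Pecam1 exceeded Emcn in 6 of 8. Emcn and Esam could not be ordered, with Emcn higher in 4 of 8 libraries.

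**Figure D1:**
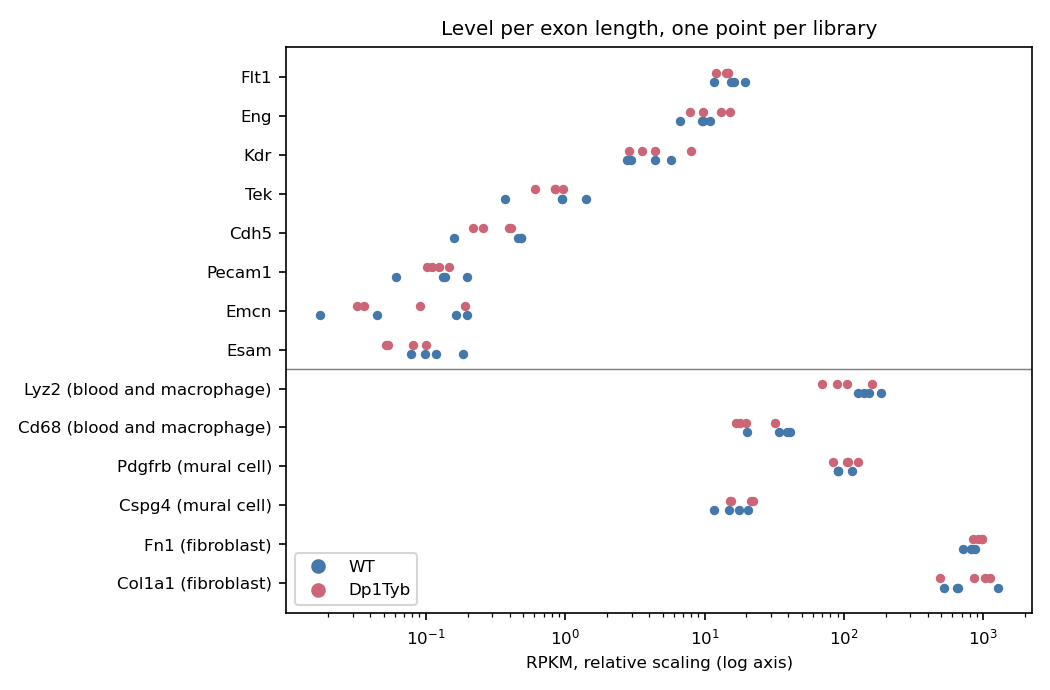
Level per exon length in RPKM (log axis, relative scaling) of the 8 endothelial genes with counts, above the grey line, and of the 2 most abundant genes of 3 other marker lists, with 1 point per library (blue WT, red Dp1Tyb). Levels fall from a mean of 14.8 RPKM for Flt1 to 0.0960 RPKM for Esam, and the points of both genotypes overlap for every endothelial gene.

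No endothelial gene of the set passed a test of genotype. With spike-in scaling, edgeR's quasi-likelihood test called 0 of the 7 tested genes at an adjusted p under 0.05, where 0.0121% of all tested genes were called. With relative scaling it also called 0 of 7, against 0.0182% of all genes. DESeq2 called 0 of 7 with spike-in scaling, against 0.0122% of the genes with an adjusted p. With relative scaling DESeq2 gave an adjusted p for 4 of the 7, not for Pecam1, Cdh5 or Emcn, and called 0 of the 4, against 0.392%. At an unadjusted p under 0.05, edgeR had 0 of the 7, against 1.17% (spike-in) and 4.27% (relative) of all genes. The values of WT and Dp1Tyb overlapped for each of the 7 genes, whereas they were apart for 0.425% (spike-in) and 3.16% (relative) of all genes. At these low background shares, 0 is also the most likely count for any 7 genes.

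In both scalings, 2 of the 7 fold changes (Kdr and Eng) were above 1 and 5 were below 1. The median log2 fold change of the 7 genes was -0.17 with relative scaling, beside 0.01 for all tested genes, and -0.05 with spike-in scaling, beside 0.11. The highest and lowest bounds of the 95% intervals, under relative scaling, both belonged to Emcn, from 0.253 to 2.49. Flt1 had the narrowest interval.

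**Figure D2:**
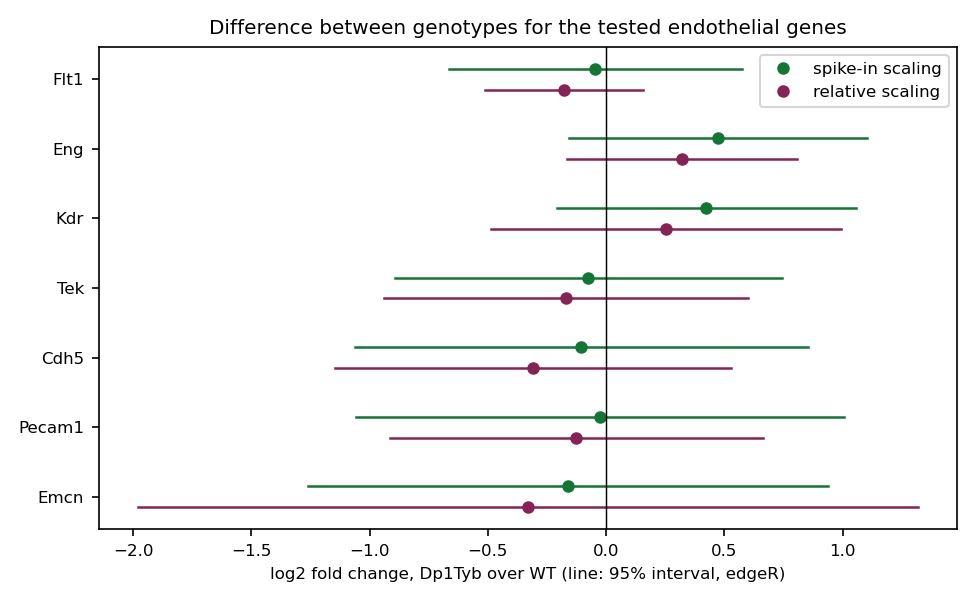
Log2 fold change of Dp1Tyb over WT for the 7 tested endothelial genes (dots) with the 95% interval of edgeR's fit (lines), under spike-in scaling (green) and relative scaling (purple). Each interval spans 0, and Kdr and Eng are the 2 genes with a positive estimate under both scalings.

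Flt1 (ENSMUSG00000029648, chr5:147561604-147726011, minus strand) was the most abundant of the receptors. Its level was 158.1, 262.0, 218.5 and 209.2 CPM in WT replicates 1 to 4 and 162.3, 197.6, 191.3 and 198.6 CPM in Dp1Tyb replicates 1 to 4. WT replicate 1 was the lowest and WT replicate 2 the highest of the 8, so the Dp1Tyb values lay inside the WT range. Dp1Tyb over WT gave a fold change of 0.884 (95% interval 0.702 to 1.11) with relative scaling and 0.969 (0.630 to 1.49) with spike-in scaling, with edgeR adjusted p-values of 1.00 (0.9995 and 0.9998).

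Kdr (ENSMUSG00000062960, chr5:75932827-75978458, minus strand), the main signalling receptor for VEGF, had 26.63, 25.24, 39.79 and 51.60 CPM in WT and 72.31, 26.02, 31.94 and 39.87 CPM in Dp1Tyb. A single library, Dp1Tyb replicate 1, stood above all the others, and the other 3 Dp1Tyb libraries lay within the WT range. The fold change was 1.19 (0.713 to 1.99) with relative scaling and 1.34 (0.865 to 2.08) with spike-in scaling, and edgeR's adjusted p was 0.9995 and 0.9998. Without Dp1Tyb replicate 1 the log2 fold change of Kdr turned from 0.25 to -0.13 with relative scaling and from 0.42 to -0.03 with spike-in scaling.

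Eng (ENSMUSG00000026814, chr2:32646595-32682669, plus strand), the BMP9 and TGF-beta co-receptor, had 39.01, 27.11, 39.22 and 44.27 CPM in WT and 61.75, 31.90, 39.72 and 53.22 CPM in Dp1Tyb. Dp1Tyb replicates 1 and 4 lay above every WT library, and Dp1Tyb replicates 2 and 3 lay among them. The fold change was 1.25 (0.891 to 1.75) with relative scaling and 1.39 (0.896 to 2.15) with spike-in scaling, and edgeR's adjusted p was 0.9995 and 0.9998. Eng overlaps Fpgs on the opposite strand, which had 2019 counts over the 8 libraries. The strand option of the counting is not given in the sources used here, so reads of the shared stretch may have been counted for either gene or for none.

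Tek (ENSMUSG00000006386, chr4:94739289-94874976, plus strand), the angiopoietin receptor, had 6.658, 4.454, 4.453 and 1.747 CPM in WT and 4.524, 3.981, 3.986 and 2.877 CPM in Dp1Tyb. The WT libraries held both the highest (replicate 1) and the lowest value (replicate 4), with all 4 Dp1Tyb libraries between them. The fold change was 0.889 (0.522 to 1.51) with relative scaling and 0.949 (0.539 to 1.67) with spike-in scaling, and edgeR's adjusted p was 0.9995 and 0.9998.

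Cdh5 (ENSMUSG00000031871, chr8:104101625-104144511, plus strand) encodes VE-cadherin, the junction protein that most strictly marks endothelium. It had 15, 48, 43 and 40 counts in WT and 28, 16, 35 and 29 counts in Dp1Tyb, or 1.67 ± 0.669 CPM (SD, n = 4) and 1.35 ± 0.406 CPM (SD, n = 4). WT replicates 2, 3 and 4 were the highest of all 8 in CPM, and WT replicate 1 was the lowest. The fold change was 0.807 (0.452 to 1.44) with relative scaling and 0.929 (0.479 to 1.81) with spike-in scaling, and edgeR's adjusted p was 0.9995 and 0.9998. Cdh5 also overlaps an antisense gene, Gm29682.

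Pecam1 (ENSMUSG00000020717, chr11:106654217-106750628, minus strand), which encodes CD31, had 19, 29, 8 and 17 counts in WT and 20, 12, 13 and 16 counts in Dp1Tyb. WT replicates 2 and 3 were the extremes, and the mean level was 0.821 ± 0.348 CPM (SD, n = 4) in WT and 0.757 ± 0.122 CPM (SD, n = 4) in Dp1Tyb. The fold change was 0.917 (0.531 to 1.58) with relative scaling and 0.982 (0.481 to 2.01) with spike-in scaling, and edgeR's adjusted p was 0.9995 and 0.9998.

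Esam (ENSMUSG00000001946, chr9:37528078-37538319, plus strand), an adhesion molecule of endothelial junctions and platelets, had 5, 8, 6 and 11 counts in WT and 4, 4, 3 and 5 counts in Dp1Tyb. Its mean was 0.345 ± 0.134 CPM (SD, n = 4) in WT and 0.205 ± 0.0666 CPM (SD, n = 4) in Dp1Tyb, and WT replicates 1 and 3 lay within the Dp1Tyb range. Without the filter on low counts, edgeR gave a log2 fold change of -0.76 ± 0.44 (SE) with relative scaling and -0.68 ± 0.70 with spike-in scaling, with adjusted p-values of 0.9997 and 0.9999.

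Emcn (ENSMUSG00000054690, chr3:137341067-137432185, plus strand), the sialomucin, had 20, 25, 2 and 5 counts in WT and 5, 3, 10 and 18 counts in Dp1Tyb. Each genotype held libraries with 18 or more counts and libraries with 5 or fewer, of which 2 were at or under the limit of 3 counts. The fold change was 0.795 (0.253 to 2.49) with relative scaling and 0.894 (0.417 to 1.92) with spike-in scaling, with edgeR adjusted p-values of 0.9995 and 0.9998.

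**Figure D3:**
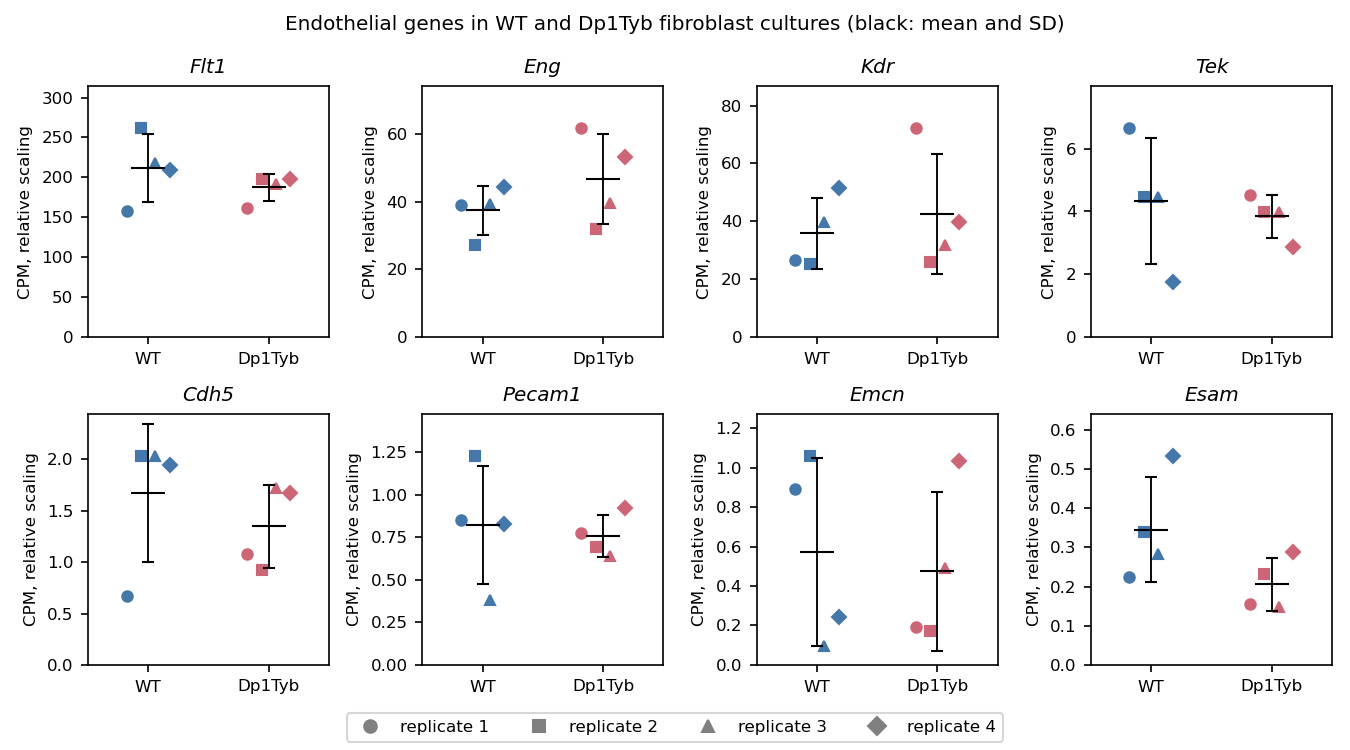
CPM under relative scaling for each of the 8 endothelial genes with counts in the 4 WT (blue) and 4 Dp1Tyb (red) libraries, with the symbol giving the replicate and the black bar the mean and SD. The genotypes overlap in all 8 panels, and the high Kdr and Eng values of Dp1Tyb replicate 1 (72.31 and 61.75 CPM) stand out.

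Summed over the 8 genes, the level was 292.9 ± 40.7 CPM in WT (SD, n = 4) and 283.3 ± 20.6 CPM in Dp1Tyb (SD, n = 4), a ratio of 0.967. With spike-in scaling the ratio was 1.07. WT libraries ran from 233.0 to 323.4 CPM and Dp1Tyb libraries from 261.6 to 303.1 CPM, so with relative scaling the Dp1Tyb range lay inside that of WT. With spike-in scaling the WT range, 217.3 to 362.9 CPM, lay inside the Dp1Tyb range of 179.9 to 392.2 CPM. The sum rests on Flt1, Kdr and Eng. The other 5 genes together had 7.74 ± 1.88 CPM in WT (SD, n = 4) and 6.63 ± 0.432 CPM in Dp1Tyb (SD, n = 4), a ratio of 0.856. With spike-in scaling the ratio for these 5 genes was 0.937. Pecam1, Cdh5, Esam and Emcn, the junction and surface markers, amounted to 35 to 110 counts per library in all, with 3.41 ± 0.926 CPM in WT (SD, n = 4) and 2.78 ± 0.864 CPM in Dp1Tyb (SD, n = 4). The ratio for these 4 genes was 0.817 with relative and 0.922 with spike-in scaling. No test was made of these sums. In bulk RNA, fewer cells of a type and less RNA per cell cannot be told apart.

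The genes did not share 1 pattern across libraries. Among the 28 pairs of the 8 genes, 12 had a positive Pearson r of log2(CPM + 0.5) over the 8 libraries. Kdr and Eng went together most closely, with r = 0.854 (exact permutation p = 0.00523, adjusted over the 28 pairs 0.147) and rho = 0.952 (exact permutation p = 0.00114, adjusted 0.0319), and r was 0.789 without the 2 libraries farthest from the median of Kdr. The Spearman correlation of this pair passed the adjustment and its Pearson correlation did not. Cdh5 and Flt1 had r = 0.786 (exact permutation p = 0.0177, adjusted 0.165) and rho = 0.857 (exact permutation p = 0.0107, adjusted 0.1), with r = 0.869 without the 2 farthest libraries. Pecam1 and Emcn had r = 0.749 (exact permutation p = 0.0147, adjusted 0.165) and rho = 0.857 (exact permutation p = 0.0107, adjusted 0.1), with r = 0.558 without the 2 farthest libraries. With 4 libraries a genotype, no correlation within a genotype was computed.

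The spread between libraries of 1 genotype differed among the genes. The SD of log2 CPM within genotypes was 0.57 for Kdr, where counting alone gives 0.05, 0.37 for Eng (counting 0.05), 0.23 for Flt1 (counting 0.02) and 0.61 for Tek (counting 0.15). For Cdh5 it was 0.63 (counting 0.26) and for Pecam1 0.51 (counting 0.35). Emcn had an SD of 1.34 (counting 0.44), above that of 99.39% of tested genes, and the SD of Esam, 0.47, was below its counting error of 0.60. The median SD of all tested genes was 0.28 (median counting error 0.08), which 7 of the 8 genes exceeded, Flt1 being the exception. For Pecam1, Emcn and Esam the counting error alone was above 0.28, so their place above the median reflects low counts in part.

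Genes most like the set were sought by the Pearson r between a gene's log2 CPM and the mean log2 CPM of the 7 tested genes, with genotype means taken off, over 8 libraries and 14587 genes with at least 20 counts on average. The first 5 were Scrib (r = 0.960), a polarity protein, the predicted gene Gm26301 (r = 0.937), Oit3 (r = 0.933), Tmem95 (r = 0.926) and the predicted gene Gm17201 (r = 0.925), and 12 genes had r above 0.9. Without the 2 farthest libraries, r of these first 5 ran from 0.733 (Gm17201) to 0.882 (Oit3). They were picked as the highest of 14587 values over 8 libraries and no test applies. None of the 5 is on the endothelial or pathway lists.

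Further endothelial genes were examined from a longer list. Of 36 further endothelial genes listed, 27 had counts and 23 were tested, with 12 fold changes above 1 and 11 below 1 under relative scaling and a median log2 fold change of 0.01. EdgeR called none of the 23 under either scaling. DESeq2 called none with spike-in scaling and none of the 14 for which it gave an adjusted p with relative scaling. Mmrn2 was the single gene of the 23 with an unadjusted edgeR p under 0.05, with relative scaling, a share near the 4.27% of all tested genes. The most abundant were Ets1, an ETS transcription factor, with 12.9 ± 1.88 RPKM (SD over 8 libraries), S1pr1, a sphingosine 1-phosphate receptor, with 7.93 ± 1.75 RPKM, Apln, a peptide of tip cells, with 7.41 ± 3.60 RPKM, Plxnd1, a semaphorin receptor, with 7.05 ± 1.01 RPKM and Cd34 with 5.61 ± 4.12 RPKM. Fibroblasts also transcribe Ets1 and Cd34. Their log2 fold changes with relative scaling ran from 0.01 (Ets1) to 0.43 (Apln), and the high Apln (50.62 CPM) and Cd34 (100.8 CPM) of Dp1Tyb replicate 1 stood above all other libraries.

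With relative scaling, the 5 genes of that list with the lowest unadjusted edgeR p were Vwf, Mmrn2, Cd93, Egfl7 and Ecscr. Vwf, the clotting factor stored in endothelial granules, had 3.24 ± 0.247 CPM in WT (SD, n = 4) and 2.35 ± 0.662 CPM in Dp1Tyb (SD, n = 4). Mmrn2, an endothelial matrix protein, had 1.99 ± 0.462 CPM in WT (SD, n = 4) and 1.30 ± 0.340 CPM in Dp1Tyb (SD, n = 4), with a log2 fold change of -0.62 ± 0.27 (SE) and an edgeR adjusted p of 0.9995. The C-type lectin Cd93 had 7.47 ± 3.59 CPM in WT (SD, n = 4) and 4.87 ± 1.24 CPM in Dp1Tyb (SD, n = 4). Egfl7 and Ecscr had the higher mean in Dp1Tyb. The secreted factor Egfl7 had 1.27 ± 0.365 CPM in WT (SD, n = 4) and 1.79 ± 0.268 CPM in Dp1Tyb (SD, n = 4), and the surface protein Ecscr had 2.76 ± 1.197 CPM (SD, n = 4) and 4.0 ± 1.04 CPM (SD, n = 4). The genotypes overlapped for each of these 5 genes. Erg (chr16:95359169-95586593), an ETS factor of endothelium, lies in the duplicated stretch and is present in an extra copy in Dp1Tyb. It had 3.351, 6.830, 5.732 and 5.776 CPM in WT and 3.558, 7.673, 10.38 and 6.156 CPM in Dp1Tyb, with overlapping groups, a log2 fold change of 0.35 ± 0.33 (SE) and an edgeR adjusted p of 0.9995 with relative scaling.

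**Figure D4:**
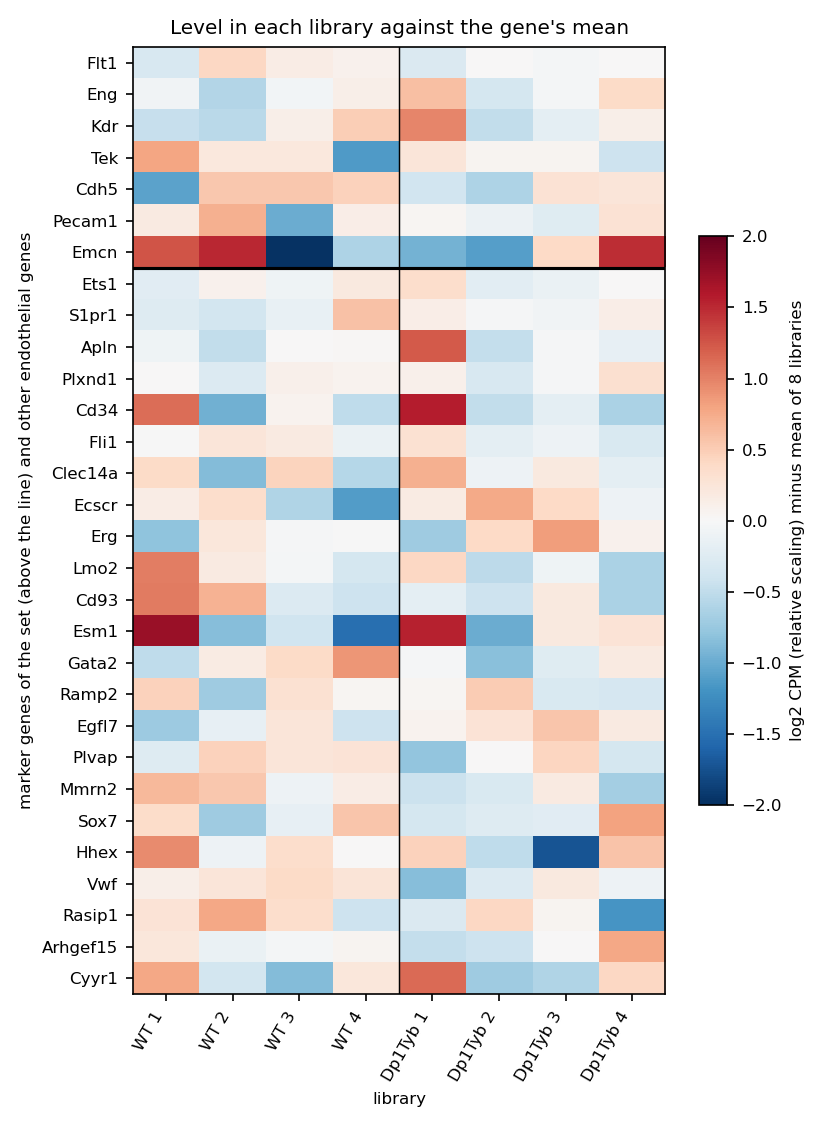
Log2 CPM (relative scaling) of each library minus the gene's mean over 8 libraries, for the 7 tested endothelial genes of the set (above the line) and 23 other tested endothelial genes, with red above and blue below the mean. No library is red or blue throughout, and Dp1Tyb replicate 1 is high in Kdr, Eng, Apln and Cd34 but not in Cdh5 or Emcn.

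Ligands and partners of the receptors spanned a wide range of levels. Of 30 genes listed for the VEGF, angiopoietin, endoglin, Notch and VE-cadherin pathways, 27 had counts and 26 were tested. Under relative scaling 19 fold changes were above 1 and 7 below 1. The median log2 fold change was 0.14, beside 0.01 for all tested genes. EdgeR called none under either scaling, beside 0.0121% (spike-in) and 0.0182% (relative) of all tested genes. DESeq2 called none with spike-in scaling and none of the 24 with an adjusted p under relative scaling, beside 0.0122% and 0.392%. At an unadjusted p under 0.05, edgeR had 1 of the 26 with each scaling, beside 1.17% (spike-in) and 4.27% (relative) of all tested genes. With relative scaling the single gene with an unadjusted edgeR p under 0.05 was Jup (plakoglobin, a partner of cadherins in many cell types), with 56.0 ± 7.41 CPM in WT (SD, n = 4) and 80.6 ± 8.76 CPM in Dp1Tyb (SD, n = 4), a log2 fold change of 0.53 ± 0.12 (SE) and an edgeR adjusted p of 0.517 with relative scaling (DESeq2 0.0646). With that scaling it was higher in 4 of 4 Dp1Tyb libraries than in any WT library (such groups were apart for 3.16% of all genes), and with spike-in scaling its groups overlapped, and it is named here because its value was seen.

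Among the ligands, Vegfa, which binds both Flt1 and Kdr, had 38.4 ± 8.40 RPKM (SD over 8 libraries). Vegfb and Pgf, which bind Flt1, had 23.5 ± 4.35 and 1.10 ± 0.375 RPKM, and Vegfc, which binds Flt4 and Kdr, had 8.85 ± 0.724 RPKM. The Tek ligands Angpt1 and Angpt2 had 3.48 ± 0.582 and 8.76 ± 1.27 RPKM. Log2 fold changes with relative scaling were 0.18 ± 0.21 (SE) for Vegfa, -0.13 ± 0.17 for Vegfb, 0.40 ± 0.31 for Pgf and 0.10 ± 0.11 for Vegfc. They were 0.28 ± 0.15 for Angpt1 and -0.09 ± 0.15 for Angpt2. Outside the rule for naming genes, and named after their values were seen, the Tek ligand Angpt4 had 1.08 ± 0.482 RPKM with a log2 fold change of 0.66 ± 0.38, and Vegfd, a ligand of Flt4, had 14.7 ± 6.26 RPKM with -0.47 ± 0.32. None of these 8 passed a test.

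Among the partners, Nrp1, a VEGF co-receptor that fibroblasts also carry, had 26.6 ± 2.05 RPKM (SD over 8 libraries). The endoglin partners Acvrl1 (ALK1) and Bmpr2 had 7.42 ± 0.981 and 26.1 ± 2.07 RPKM, Notch1 and its ligand Jag1 had 4.54 ± 0.347 and 22.2 ± 6.27 RPKM, and Ptprb (VE-PTP), a phosphatase that acts on Tek, had 0.667 ± 0.387 RPKM. Their log2 fold changes with relative scaling ran from -0.04 (Notch1) to 0.55 (Ptprb), and WT and Dp1Tyb overlapped for each of these 6 genes.

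Markers of other cell types were read beside the set. For macrophage and blood genes, 14 of 14 fold changes with relative scaling were below 1, with a median log2 fold change of -0.59, and edgeR had 9 of 14 at an unadjusted p under 0.05, beside 4.27% of all tested genes, but called 0. DESeq2 called 1 of the 14, Ptprc (CD45, the leukocyte phosphatase), beside 0.392% of the genes with an adjusted p. Ptprc had 14.4 ± 0.712 CPM in WT (SD, n = 4) and 7.89 ± 0.546 CPM in Dp1Tyb (SD, n = 4), with no overlap and an edgeR adjusted p of 0.0903. The genotypes were apart for 3 of the 14 genes, Ptprc among them, beside 3.16% of all tested genes. With spike-in scaling edgeR had 1 of 14 at an unadjusted p under 0.05, beside 1.17% of all tested genes, DESeq2 called 0 of 14, and the adjusted p of Ptprc was 0.9998 (edgeR). The fold changes were again below 1 in 14 of 14, with a median log2 fold change of -0.47, and Ptprc had -0.76. Under spike-in scaling the genotypes were apart for Ptprc, 1 of the 14, beside 0.425% of all tested genes. The summed level of the 14 genes ran from 378.6 to 515.3 CPM in WT and from 215.4 to 407.4 CPM in Dp1Tyb. Lyz2 (lysozyme) had 198.2 ± 32.9 CPM in WT (SD, n = 4) and 139.6 ± 51.0 CPM in Dp1Tyb (SD, n = 4), and Cd68 had 42.2 ± 11.6 and 27.2 ± 8.71 CPM (SD, n = 4 each). The part of blood cells in the Flt1 and Pecam1 levels was not tested.

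Mural cell genes, which mark the pericytes and smooth muscle that wrap vessels, had counts for 9 of 10 genes. Their sum ran from 728.7 to 896.7 CPM in WT and from 715.5 to 944.8 CPM in Dp1Tyb, led by Pdgfrb with 101.2 ± 14.9 RPKM and Cspg4 with 17.4 ± 3.77 RPKM (SD over 8 libraries), both of which fibroblasts can carry. The fibroblast sum was 23450 to 34020 CPM in WT and 27600 to 33470 CPM in Dp1Tyb. Lymphatic endothelial genes, with counts for 5 of 7, summed to 321.0 to 605.7 CPM in WT and 415.2 to 538.7 CPM in Dp1Tyb, and Pdpn, which fibroblasts also express, had the highest level of that list (213.2 ± 35.5 RPKM, SD over 8 libraries) before Flt4, the VEGFC receptor (6.30 ± 2.19 RPKM). For the remaining lists the ratio of the summed level in Dp1Tyb to that in WT was 0.793 (red cell lineage, 2 of 9 genes with counts), 0.932 (megakaryocyte and platelet, 4 of 6), 1.48 (skeletal muscle, 7 of 10), 1.39 (epithelium, 7 of 8) and 1.16 (neuron, 5 of 6), with relative scaling. The epithelial sum rests on Krt19 in Dp1Tyb replicate 1 (44.74 CPM, against 9.75 to 14.27 CPM in the other libraries), and 3 of the 5 tested epithelial genes had fold changes below 1. The most abundant genes of these lists were Alas2 and Epor (red cell lineage), Gp1bb and Ppbp (platelets), Acta1 and Des (muscle), Krt19 and Krt18 (epithelium), and Tubb3 and Map2 (neurons). Their mean levels ran from 0.112 RPKM (Epor) to 13.4 RPKM (Tubb3), with overlapping genotypes for each. Of the Schwann and neural crest list, Sox10, Erbb3, Mbp and Foxd3 are given, and all 4 were tested. Their fold changes were below 1 in 4 of 4 under both scalings, with a median log2 fold change of -0.61 with relative scaling, and the sum of the 4 genes ran from 23.2 to 50.8 CPM in WT and from 20.4 to 28.7 CPM in Dp1Tyb, with a ratio of means of 0.670. Foxd3 had an unadjusted edgeR p under 0.05 with relative scaling, none of the 4 was called by edgeR or DESeq2, and the part of these cells in the endothelial levels was not tested. For the lists of red cells, platelets, muscle, epithelium and neurons, edgeR called 0 genes and DESeq2 0 of those with an adjusted p. At an unadjusted p under 0.05, edgeR with relative scaling had Pf4 (1 of 4 tested platelet genes) and Chrna1 (1 of 6 muscle genes). The share over all tested genes was 4.27%. With spike-in scaling these were Chrna1, Des, Myh3 and Acta1 (4 of 6 muscle genes) and Krt19 (1 of 5 epithelial genes). The share over all tested genes was then 1.17%. The muscle genes had fold changes above 1 in 6 of 6 tested, with a median log2 fold change of 0.77 with relative and 0.86 with spike-in scaling. At an unadjusted p under 0.05, DESeq2 had 1 of 6 muscle genes and 0 of 5 epithelial genes with spike-in scaling. With relative scaling DESeq2 had 2 of 6 and 1 of 5. WT and Dp1Tyb overlapped for each of the 6 muscle genes under both scalings. With relative scaling the muscle sum ran from 43.9 to 75.8 CPM in WT and from 45.7 to 145.2 CPM in Dp1Tyb. The part of muscle genes in the endothelial levels was not tested. Genes of the lists without counts were not analysed here.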

How the data were processed

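Deposited raw counts per gene were used. According to the methods and the submitters' processing notes, the authors trimmed reads with Trim Galore, aligned them with TopHat2 2.0.12 to GRCm38 with the spike-in sequences, discarded reads with several alignments, and counted with HTSeq. The annotation release and strand option of the counting are not given in the sources used here. The deposited normalised counts and the authors' DESeq2 1.6.3 table (mean, log2 fold change, standard error, Wald score, p-value and adjusted p-value) were not used.

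Symbols, positions and exon lengths came from GENCODE M21 (19318 of 19493 gene IDs matched). Low counts were removed with filterByExpr. WT and Dp1Tyb were grouped by the labels and compared in all 8 libraries with edgeR 4.0.16 under R 4.3.3 (quasi-likelihood test, two-sided), with Benjamini-Hochberg adjustment over 16470 genes and a threshold of 0.05. Spike-in scaling used median-of-ratios factors over 63 spike-ins. TMM factors over endogenous genes gave relative scaling. The code was tested on simulated data. Logs of CPM used a pseudocount of 0.5 CPM, and the SD within genotypes used 0.5 counts. Counting error is that of the mean count.

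The genes and lists were chosen with earlier results of these data known. Genes named were the whole set, Erg, the 5 most abundant and the 5 with the lowest p of the further endothelial list, 12 fixed ligands and partners of the receptors, and the 2 most abundant of each other list. Jup, Angpt4, Vegfd, Ptprc, Sox10, Mbp, Foxd3, Pf4, Chrna1 and Myh3 were named after their values were seen. Of the Schwann and neural crest list, 2 genes are not reported here, so its other 4 were summed, a choice made after seeing the data. Alternatives were DESeq2 1.42.0, other factors, filters and thresholds, the replicate number as a block, and leaving out each library.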

Additional observations from a re-analysis of the deposited data

Results flagged for a closer look

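Among 20 groups of 4 values examined for a sample far from the others, 1 was found: Cdh5 in WT replicate 1, with 0.6702 CPM (15 counts) under relative scaling, while the other 3 WT libraries had 1.942 to 2.037 CPM. The 95% critical value of Dixon's test was used, which chance passes in about 1 group in 20. The cause was not tested.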

How the results depend on the processing

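No endothelial gene of the set was called under any alternative that was run, and the lowest adjusted p of a gene of the set over all alternatives was 0.492, for Eng with relative scaling and the replicate block (edgeR). Of the log2 fold changes under alternatives other than leaving out a library, 40 of 40 with relative scaling kept their direction, and 37 of 40 with spike-in scaling. The 3 that turned were all close to 0: Pecam1 at 0.0144 with the replicate block and 0.0161 with TMM over the spike-ins, and Tek at 0.0267 with the replicate block. The cause was not tested.

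Leaving out 1 library at a time, log2 fold changes with spike-in scaling ran from -0.34 to 0.18 for Pecam1, from -0.34 to 0.16 for Cdh5, from -0.0319 to 0.80 for Kdr, from -0.20 to 0.11 for Flt1, from -0.30 to 0.40 for Tek and from -1.02 to 0.27 for Emcn. With relative scaling they ran from -0.35 to 0.15 for Pecam1, from -0.13 to 0.48 for Kdr and from -0.43 to 0.12 for Tek. Eng kept its direction throughout, as did Cdh5, Flt1 and Emcn with relative scaling, although Emcn went from -0.33 to -1.01 without Dp1Tyb replicate 4 and to -0.0427 without Dp1Tyb replicate 1. The direction turned in 3 of 55 fits with relative scaling (Pecam1 without WT replicate 2, Kdr without Dp1Tyb replicate 1, Tek without WT replicate 1) and in 16 of 55 with spike-in scaling, 5 of them without Dp1Tyb replicate 2. Emcn failed the filter without WT replicate 2, and Emcn and Pecam1 failed that of at least 10 counts in every library.

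The ratio of the summed level, 0.967, ran from 0.906 to 1.00 with a library left out. With RPKM summed in place of CPM it was 1.03, above 1, and without Eng it was 0.926. It was 0.856 without Flt1, Kdr and Eng, a choice made after seeing the data.

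Nothing in the labels says that the replicate numbers pair libraries. Across genes, the deviations of same-numbered libraries had r = 0.375, 0.605, -0.03 and 0.393. WT replicates 1, 2 and 4 went best with their own number and WT replicate 3 with Dp1Tyb replicate 4, so the numbers were not taken as pairs. With the replicate block, calls over all genes went from 2 to 9 with spike-in scaling and from 3 to 7 with relative scaling, with 0 of the set among them. Genes at an unadjusted p under 0.05 went from 703 to 1601 with relative scaling, and Eng was among the 1601. Relative calls were 52 with DESeq2, and both scalings gave 0 calls with at least 10 counts in every library. Depth limits Pecam1, Emcn and Esam most, with means of 16.75, 11.0 and 5.75 counts per library.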
